A study of Bos taurus with 15 samples.

Results

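The genes of the proteasome in the bovine oocyte were followed across vitrification. They were taken as every gene whose symbol starts with PSM and a letter from A to G, which gave 47 of the 24616 genes in the deposited table. The name also picks up 1 gene of another function, PSMC3IP, whose values are given apart but which is counted among the 47 and among the 42 genes tested. Here alpha ring means PSMA3 to PSMA7, the 5 alpha genes with a symbol besides PSMA8. No gene carried the symbol PSMA1 or PSMA2, so the alpha ring values cover only part of the ring. Gene spans are on the bovine build UMD3.1. RNA sequencing covered 15 libraries of Bos taurus oocytes in 5 groups of 3. Liquid helium cooled 2 groups, with the cryoprotective agent at 6.6 M or at 5.6 M, liquid nitrogen cooled 2 groups at the same concentrations, and the fifth group was fresh. Per the labels, oocytes of all groups came from ovaries, were matured in vitro for 22 to 24 h and were stripped of cumulus cells with hyaluronidase. The series title calls the oocytes immature, and the labels name neither the cryoprotectants nor the animals.

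The proteasome is the large protease that degrades ubiquitin-tagged proteins in the cytosol and nucleus. Its core particle stacks rings of alpha subunits, which gate the entrance, on rings of beta subunits, of which PSMB5, PSMB6 and PSMB7 carry the active sites. A regulatory particle caps the core: the ATPases of its base unfold the substrate, and its lid removes the ubiquitin chain. Other caps, the PA28 and PA200 activators, open the core without ubiquitin. Dedicated chaperones assemble the rings and the base. In a maturing oocyte the proteasome removes cyclin B and securin at the metaphase-to-anaphase transition, and after fertilization it clears maternal proteins.

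Library totals ran from 6346848 to 8569618 counts in the helium groups, from 1790900 to 7392972 in the nitrogen groups and from 1601519 to 2822837 in fresh oocytes, so depth went largely with the coolant. Of 12 oocyte marker genes 9 were in the table and none of these was at 0, with summed levels of 5363 to 8961 CPM in vitrified and 4753 to 8994 CPM in fresh libraries (CPM, which gives every library the same total, here with no TMM factor). Of 18 cumulus and granulosa markers 16 were in the table, with sums of 289 to 538 CPM in vitrified and 282 to 440 CPM in fresh libraries, and FSHR, FOXL2 and NR5A1 were at 0 in all 15. Markers of blood and immune cells summed to at most 8.11 CPM in vitrified and 3.65 CPM in fresh libraries, and those of theca and stroma to at most 11.1 and 5.62 CPM. Among these markers TIMP1 reached 129.6 CPM in helium 6.6 M library 2, against 0 to 12.9 CPM in the other 14 libraries. The labels do not tell whether the replicates are separate animals, cultures or aliquots, so a p-value here speaks of library-to-library spread alone, some or all of it possibly technical. All values are relative to a library's total, so less RNA per oocyte and fewer oocytes in a library cannot be told apart.

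Proteasome transcripts took 0.949% ± 0.0513 of all counts in helium 6.6 M, 0.917% ± 0.0196 in helium 5.6 M, 0.932% ± 0.0895 in nitrogen 6.6 M, 0.935% ± 0.0155 in nitrogen 5.6 M and 0.824% ± 0.0858 in fresh oocytes (SD, n = 3 each). Fresh library 3 took 0.923%, within the vitrified range of 0.841% to 1.02%. Levels of different genes are compared as FPKM, counts scaled by gene length and library total. On that scale the 47 genes spanned 5 orders of size, down to PSMB11 at 0.0081 FPKM, a value that rests on 1 count. On average 3 of the 47 were at 1000 FPKM or more, 15 at 100 or more, 33 at 10 or more and 44 at 1 or more. Over all genes, 4.39% reached 100 FPKM and 36.9% reached 1 FPKM. Genes of the alpha ring led: PSMA5, PSMA7 and PSMA4 averaged 2118, 1203 and 1036 FPKM and ranked 41, 78 and 96 among all genes. The 5 alpha genes took 54.2% to 66.1% of the summed FPKM of the proteasome genes in each library. The chaperone gene PSMG1 followed at 548 FPKM, at rank 4 of the 47.

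Within a ring each subunit occurs in equal number, whereas the transcripts differed: the highest of the 5 alpha genes with a symbol stood 8.401 times above the lowest, and the highest base ATPase 8.63 times (mean FPKM). A further alpha gene that has no symbol, described below as alpha type-1, was lower still at 6.02 FPKM and is in none of the alpha ring values. The median FPKM of the alpha ring was 37.0 to 69.3 times that of the 6 base ATPases in vitrified libraries and 31.4 to 81.9 times in fresh ones. Structural beta subunits stood above the catalytic ones in 15 of 15 libraries, by 8.49 to 14.1 times in vitrified and 6.75 to 10.1 times in fresh libraries (ratio of medians). Within the base, PSMD1 averaged 159 FPKM and PSMD2, which pairs with it as a scaffold, 16.4 FPKM. The order of the 47 genes was nearly the same with and without vitrification: Spearman's rho against the fresh means was 0.993 for helium 6.6 M, 0.991 for helium 5.6 M, 0.995 for nitrogen 6.6 M and 0.994 for nitrogen 5.6 M. This is a description across genes, which are not independent replicates and share the fresh libraries.

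**Figure D1:**
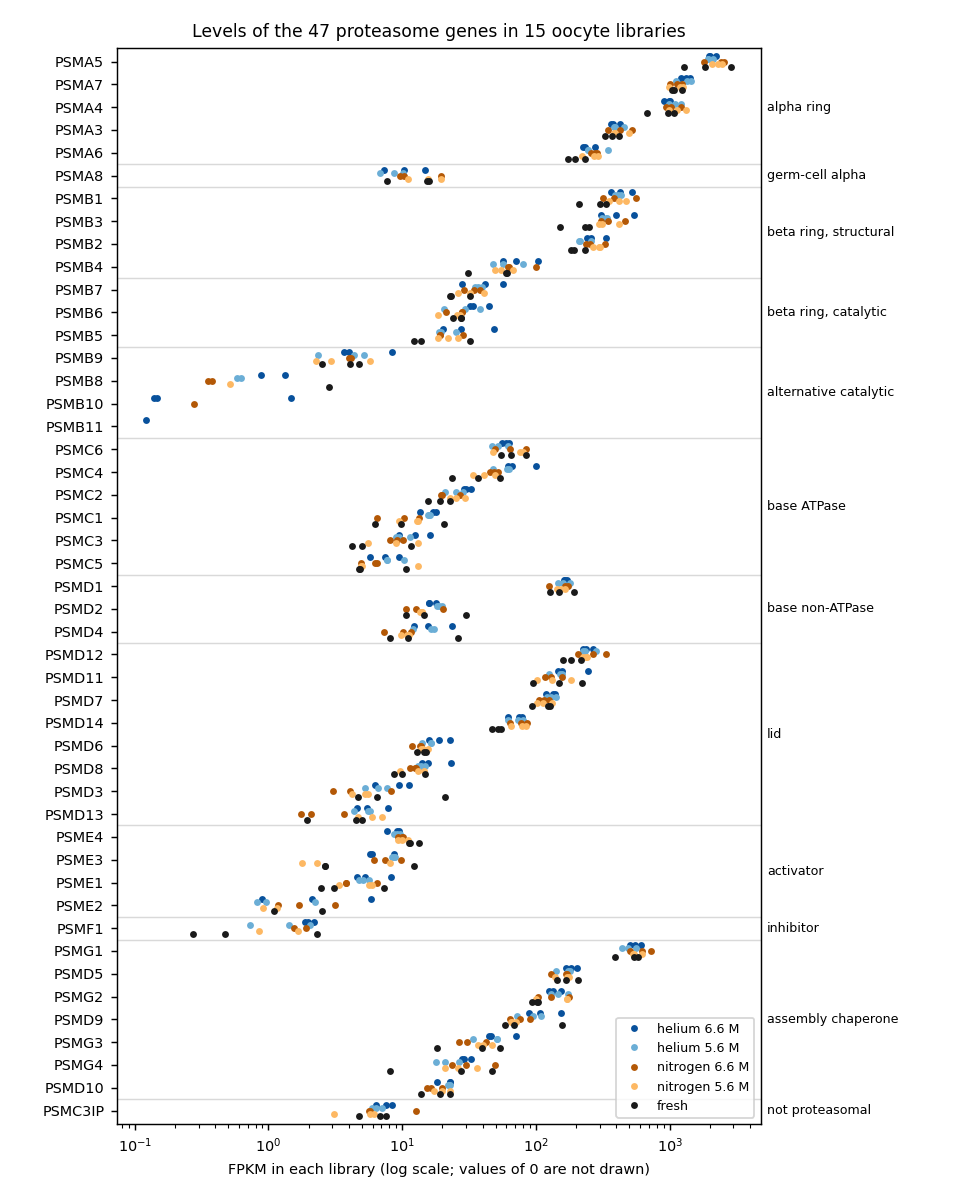
FPKM of the 47 proteasome genes (log axis), grouped by role, with 1 point for each library and values of 0 left out. The 5 alpha ring genes with a symbol lie between 174 and 2889 FPKM in all groups, the catalytic beta subunits between 12.3 and 56.5, and the alternative catalytic subunits at or below 8.36.

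Vitrified oocytes were first set against fresh ones whatever the coolant. No proteasome gene passed the threshold: edgeR's quasi-likelihood test called 0 of the 42 genes with enough counts to test at an adjusted p of 0.05, where it called 0.509% of all 8441 genes tested. At an unadjusted p of 0.05 there were 11, 9 with higher and 2 with lower values in vitrified oocytes, beside 13.6% of all genes (5.88% higher and 7.71% lower). DESeq2 called 1 of 42, PSMB3, beside 2.26% of all genes. The log2 fold changes leaned upward, with a median of 0.14 over the 42 genes against -0.03 over all genes, and 32 of 42 were above 0, against 46.5% of all genes. This describes genes that share the same 3 fresh libraries and are not independent replicates. A single library's median over these genes had an SD of 0.18 within groups. Without PSMC3IP the median was 0.15, with 31 of 41 above 0 and 0 called. With single libraries left out the median of the 42 was 0.12 to 0.22, the highest without fresh library 3. Role by role the median log2 fold change was 0.45 for the structural beta subunits (4 of 4 above 0), 0.35 for the catalytic ones (3 of 3), 0.29 for the base ATPases (5 of 6) and 0.20 for the lid (6 of 8). It was 0.10 for the alpha ring (5 of 5), 0.07 for the assembly chaperones (5 of 7) and -0.16 for the non-ATPase subunits of the base (1 of 3). Fitted with depth class (above or below 4000000 counts) as a term, the median was 0.13, with 25 of 42 above 0 and 0 called. Only nitrogen 6.6 M held both depth classes, so in every comparison this term rests on its library 3 alone. The term cannot separate depth from other features of that library.

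**Figure D2:**
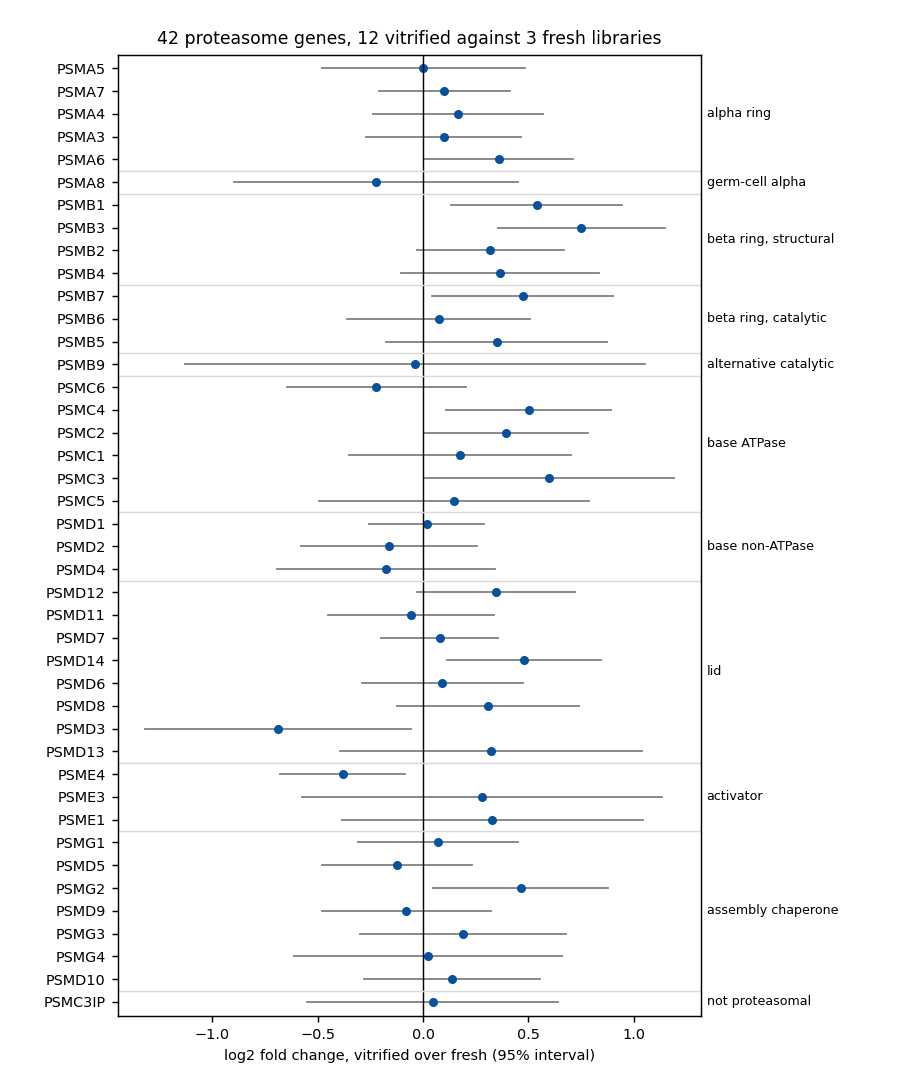
Log2 fold change of the 42 tested proteasome genes, 12 vitrified over 3 fresh libraries, with the 95% interval from edgeR, grouped by role. Most points lie right of 0, with PSMB3 farthest right at 0.75 and PSMD3 farthest left at -0.69, and none passed the adjusted threshold.

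None of the 5 alpha ring genes passed the threshold. CPM per gene is from here on TMM-scaled (trimmed mean of M-values), which makes libraries comparable. PSMA5 (ENSBTAG00000020641, chr3:34126163-34147197), the most abundant proteasome transcript, encodes subunit alpha 5. PSMA5 measured 1926, 1752 and 2114 CPM with helium at 6.6 M and 1759, 1824 and 2147 at 5.6 M, 1790.3, 2488 and 2546 with nitrogen at 6.6 M and 2001, 2434 and 2494 at 5.6 M, and 1909, 1027 and 3351 in fresh oocytes. Fresh library 2 was the lowest of the 15 and fresh library 3 the highest, so the fresh libraries spanned all vitrified ones. Its log2 fold change, vitrified over fresh, was 0.00 ± 0.23 (SE; edgeR adjusted p = 0.999). PSMA7 encodes alpha 4, with a log2 fold change of 0.10 ± 0.15 (edgeR adjusted p = 0.84). In helium-cooled oocytes PSMA7 stood at 1331, 1137 and 1114 CPM at 6.6 M and 984, 1244 and 1423 at 5.6 M. Nitrogen-cooled oocytes held 1177, 1146 and 984 CPM of PSMA7 at 6.6 M and 1186, 1013 and 1173 at 5.6 M, against 1052, 964 and 1222 in fresh oocytes. The lowest library was again fresh library 2, and each vitrified group overlapped the fresh one. PSMA6, the lowest of the 5 at 252 FPKM, encodes alpha 1 by ring position. The gene without a symbol described as alpha type-1 follows another numbering and is a different subunit. Transcripts of PSMA6 came to 226, 196 and 259.7 CPM in the helium 6.6 M libraries and 222, 229 and 346 in helium 5.6 M. They came to 269, 292 and 258 CPM in nitrogen 6.6 M, 279.9, 284 and 222 in nitrogen 5.6 M and 242, 157 and 200.2 in fresh libraries. All nitrogen 6.6 M values of PSMA6 lay above the fresh ones, while the other 3 vitrified groups overlapped them. PSMA6 had a log2 fold change of 0.36 ± 0.17 for vitrified over fresh (edgeR adjusted p = 0.355). PSMA3 and PSMA4 had log2 fold changes of 0.10 and 0.16, with fresh library 2 the lowest of the 15 for both.

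PSMA8 (ENSBTAG00000017698, chr24:30986486-31007475) encodes the germ-cell form of alpha 4, known from the testis proteasome of the mouse, where it takes the place of PSMA7. Its mean level was 0.979% of that of PSMA7 in vitrified oocytes and 1.16% in fresh ones, as FPKM. PSMA8 measured 5.71, 7.31 and 11.4 CPM with helium at 6.6 M and 6.31, 5.18 and 8.33 at 5.6 M, 7.62, 8.53 and 15.8 with nitrogen at 6.6 M and 15.2, 9.45 and 12.8 at 5.6 M, and 13.4, 5.03 and 14.3 in fresh oocytes. Fresh library 2 held the lowest value and nitrogen 6.6 M library 3 the highest, and all vitrified groups overlapped the fresh one. Log2 fold changes of PSMA8 were -0.73 ± 0.39 for helium 5.6 M over fresh and -0.69 ± 0.26 for helium over nitrogen, with edgeR adjusted p of 0.422 and 0.215. With depth class in the fit, the estimate for helium over nitrogen was -1.42. That term rests on nitrogen 6.6 M library 3, which held the highest PSMA8 value.

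The structural beta subunits held the gene with the largest log2 fold change, vitrified over fresh, of the 42 tested. PSMB3 (ENSBTAG00000003830, chr19:39980435-39989908) encodes beta 3, which has no active site. In helium-cooled oocytes PSMB3 stood at 232, 364 and 290.5 CPM at 6.6 M and 239, 244 and 242 at 5.6 M. Nitrogen-cooled oocytes held 233, 276 and 361 CPM of PSMB3 at 6.6 M and 229.97, 239.6 and 327 at 5.6 M, against 121, 154 and 209 in fresh oocytes. All 12 vitrified libraries lay above all 3 fresh ones, which held for 1 of 42 proteasome genes and 1.32% of all genes tested. Mean levels were 273 ± 50.9 CPM in vitrified (SD, n = 12) and 161 ± 44.5 CPM in fresh libraries (n = 3). The log2 fold change was 0.75 ± 0.19, a difference that did not pass in edgeR (adjusted p = 0.087) and passed in DESeq2 (adjusted p = 0.0119). It was 0.98 and passed without fresh library 3 (edgeR adjusted p = 0.0434, beside 0.569% of all genes), and for helium 6.6 M over fresh the 1 call without that library was again PSMB3, beside 0.367% of all genes. Its estimate for vitrified over fresh was 0.45 with depth class as a term.

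PSMB1, the most abundant of the structural group at 392 FPKM, encodes beta 6. Transcripts of PSMB1 came to 314, 406 and 361 CPM in the helium 6.6 M libraries and 347, 326 and 371 in helium 5.6 M. They came to 278, 350.2 and 499.99 CPM in nitrogen 6.6 M, 299, 440.1 and 379.7 in nitrogen 5.6 M and 193, 215 and 343 in fresh libraries. Fresh libraries 1 and 2 lay below every vitrified library and fresh library 3 within them. PSMB1 had a log2 fold change of 0.54 ± 0.19 (edgeR adjusted p = 0.218). PSMB4, the least abundant of the group at 64.3 FPKM, encodes beta 7. PSMB4 measured 53.1, 87.7 and 64.2 CPM with helium at 6.6 M and 68.9, 51.1 and 46.1 at 5.6 M, 58.5, 61.7 and 95.98 with nitrogen at 6.6 M and 62.3, 50.1 and 53.4 at 5.6 M, and 30.7, 46.7 and 66.6 in fresh oocytes. The groups overlapped, fresh library 1 being the lowest. Its log2 fold change was 0.36 ± 0.23 (edgeR adjusted p = 0.513). PSMB2, which encodes beta 4, had a log2 fold change of 0.32.

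**Figure D3:**
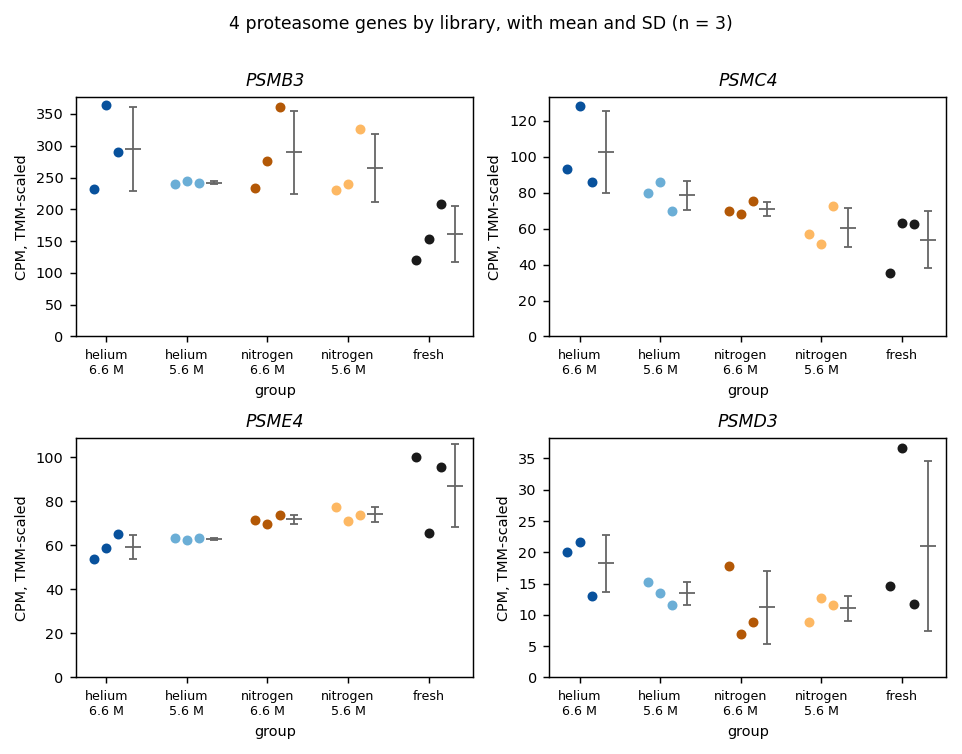
TMM-scaled CPM of PSMB3, PSMC4, PSME4 and PSMD3 in every library, with the mean and SD of each group (n = 3). PSMB3 is above the fresh libraries in all 4 vitrified groups, PSME4 is below them in both helium groups, and fresh library 2 stands alone in PSMD3 at 36.7 CPM.

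The 3 catalytic subunits were expressed at similar levels, 34.4 FPKM for PSMB7, 28.5 for PSMB6 and 23.5 for PSMB5. PSMB5 carries the chymotrypsin-like site. In helium-cooled oocytes PSMB5 stood at 27.7, 60.02 and 36.97 CPM at 6.6 M and 25.01, 33.4 and 26.6 at 5.6 M. Nitrogen-cooled oocytes held 39.6, 27.6 and 26.9 CPM of PSMB5 at 6.6 M and 24.99, 32.6 and 37.2 at 5.6 M, against 18.03, 36.2 and 22.3 in fresh oocytes. Helium 6.6 M library 2 was the highest and fresh library 1 the lowest, and fresh library 2 lay above 8 of 12 vitrified libraries. PSMB6 carries the caspase-like site. PSMB6 measured 26.8, 32.4 and 25.002 CPM with helium at 6.6 M and 28.6, 23.1 and 16.99 at 5.6 M, 17.3, 23.97 and 23.2 with nitrogen at 6.6 M and 21.6, 16.1 and 21.5 at 5.6 M, and 20.7, 18.1 and 26.1 in fresh oocytes. Its highest value was again in helium 6.6 M library 2, and the groups overlapped. PSMB7 carries the trypsin-like site. Transcripts of PSMB7 came to 25.8, 47.5 and 38.2 CPM in the helium 6.6 M libraries and 30.7, 35.5 and 35.8 in helium 5.6 M. They came to 32.5, 28.8 and 36.7 CPM in nitrogen 6.6 M, 24.1, 32.6 and 39.5 in nitrogen 5.6 M and 22.7, 24.6 and 25.7 in fresh libraries. PSMB7 lay above all fresh values in helium 6.6 M, helium 5.6 M and nitrogen 6.6 M oocytes, and 1 nitrogen 5.6 M library fell among the fresh ones. The log2 fold changes, vitrified over fresh, were 0.35 ± 0.25 for PSMB5, 0.07 ± 0.21 for PSMB6 and 0.47 ± 0.21 for PSMB7 (edgeR adjusted p = 0.588, 0.926 and 0.312).

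Their alternatives, which replace them in immune cells and the thymus, were lower, with PSMB8, PSMB10 and PSMB11 near the limit of detection. PSMB9, the counterpart of PSMB6, was the only alternative with enough counts to test. PSMB9 measured 2.71, 5.61 and 2.93 CPM with helium at 6.6 M and 3.04, 3.76 and 1.797 at 5.6 M, 0, 3.25 and 3.07 with nitrogen at 6.6 M and 4.24, 2.36 and 1.74 at 5.6 M, and 2.003, 2.51 and 4.21 in fresh oocytes. Its mean FPKM was 13.5% of that of PSMB6 in vitrified and 14.4% in fresh oocytes, and its log2 fold change was -0.04 ± 0.52 (edgeR adjusted p = 0.987). PSMB8 stands in for PSMB5 and is given in raw counts, which rise with depth. In helium-cooled oocytes PSMB8 stood at 0, 10 and 7 counts at 6.6 M and 0, 5 and 4 at 5.6 M. Nitrogen-cooled oocytes held 0, 1 and 3 counts of PSMB8 at 6.6 M and 0, 0 and 1 at 5.6 M, against 0, 5 and 0 in fresh oocytes. Its summed level was 0.500 CPM (95% exact Poisson interval 0.340 to 0.709) in vitrified and 0.824 CPM (0.268 to 1.92) in fresh libraries, for 31 and 5 counts, so no difference was detectable at this depth. The interval covers counting error only. PSMB10 stands in for PSMB7. PSMB10 measured 1, 10 and 1 counts with helium at 6.6 M and 0, 0 and 0 at 5.6 M, 0, 0 and 2 with nitrogen at 6.6 M and 0, 0 and 0 at 5.6 M, and 0, 0 and 0 in fresh oocytes. Of its 14 counts 10 came from helium 6.6 M library 2, the library with the high TIMP1. In fresh oocytes the count of 0 allows up to 0.494 CPM (3 counts of their summed total). PSMB11, the thymus form, had 1 count in helium 6.6 M library 1 and 0 in the other 14 libraries.

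PSMB8 and PSMB9 are neighbours on chromosome 23, with a gap of 10402 bases between chr23:7113304-7116676 and chr23:7127079-7133608. PSMB5 and PSMB11 lie 4370 bases apart on chromosome 10, at chr10:21658161-21663680 and chr10:21652617-21653790. The 47 genes lay on 19 chromosomes, with 8 on chromosome 19 and 7 on chromosome 10, and no other neighbours than these and PSME1 with PSME2 lay as close.

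The ATPases of the base, PSMC1 to PSMC6, form the ring that unfolds substrates. PSMC4 (ENSBTAG00000009414, chr18:49688182-49699038) had the highest log2 fold change of the 42 tested genes in any 1 group against fresh, 0.92 ± 0.23 with helium at 6.6 M. Transcripts of PSMC4 came to 92.95, 129 and 85.9 CPM in the helium 6.6 M libraries and 79.6, 85.9 and 69.9 in helium 5.6 M. They came to 69.6, 68.2 and 75.6 CPM in nitrogen 6.6 M, 57.2, 51.5 and 72.6 in nitrogen 5.6 M and 35.4, 63.3 and 62.4 in fresh libraries. Values lay above the fresh ones in both helium groups and in nitrogen 6.6 M, and nitrogen 5.6 M overlapped them. The difference between helium 6.6 M and fresh oocytes did not pass in edgeR (adjusted p = 0.0668) and passed in DESeq2 (adjusted p = 0.00707). Helium 6.6 M library 2 was the highest of the 15. Without that library and fresh library 2 the log2 fold change was 0.85.

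PSMC6 was the most abundant ATPase at 62.9 FPKM. PSMC6 measured 88.2, 89.9 and 92.96 CPM with helium at 6.6 M and 91.2, 80.6 and 77.9 at 5.6 M, 79.3, 108 and 137 with nitrogen at 6.6 M and 119, 137 and 78.9 at 5.6 M, and 111, 71.4 and 159 in fresh oocytes. Fresh library 2 was the lowest and fresh library 3 the highest, as for PSMA5. PSMC5 was the least abundant at 7.29 FPKM. In helium-cooled oocytes PSMC5 stood at 7.57, 11.2 and 9.44 CPM at 6.6 M and 9.46, 9.72 and 14.05 at 5.6 M. Nitrogen-cooled oocytes held 8.64, 6.91 and 8.51 CPM of PSMC5 at 6.6 M and 6.35, 7.09 and 17.996 at 5.6 M, against 6.68, 11.6 and 7.59 in fresh oocytes. Every group of PSMC5 overlapped the fresh one. Vitrified over fresh, PSMC6 had a log2 fold change of -0.22 ± 0.20 and PSMC5 of 0.15 ± 0.31 (edgeR adjusted p = 0.705 and 0.897). Among the others PSMC3 had 0.60 ± 0.28, PSMC2 0.39 ± 0.19 and PSMC1 0.18 ± 0.25 on the same scale, none past the threshold.

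PSMD1, a scaffold of the base, was the steadiest of the 47 genes, with a median within-group coefficient of variation of 2.65%. Transcripts of PSMD1 came to 512, 487 and 507 CPM in the helium 6.6 M libraries and 471, 548 and 482 in helium 5.6 M. They came to 553, 552 and 409.7 CPM in nitrogen 6.6 M, 518, 494 and 506 in nitrogen 5.6 M and 507, 502 and 482 in fresh libraries. Its values in all groups but nitrogen 6.6 M stayed between 471 and 548 CPM, and the log2 fold change was 0.02 ± 0.13 with a 95% interval of -0.26 to 0.29. PSMD4 binds ubiquitin chains and was the least abundant of the non-ATPase subunits at 13.5 FPKM. PSMD4 measured 25.6, 35.1 and 19.8 CPM with helium at 6.6 M and 18.5, 27.6 and 28.1 at 5.6 M, 19.3, 17.9 and 12.6 with nitrogen at 6.6 M and 18.2, 17.5 and 18.6 at 5.6 M, and 19.4, 35.7 and 16.01 in fresh oocytes. Fresh library 2 was the highest and nitrogen 6.6 M library 3 the lowest, and the log2 fold change of helium over nitrogen was 0.59 ± 0.21 (edgeR adjusted p = 0.195). PSMD2 had a log2 fold change, vitrified over fresh, of -0.16, with fresh library 2 its highest as well.

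Among the lid genes with a PSMD symbol are PSMD14, the enzyme that removes ubiquitin chains, and 7 further subunits. PSMD14 had a log2 fold change of 0.48 ± 0.17 (edgeR adjusted p = 0.223), with 92.1 to 139 CPM in vitrified and 59.3 to 99.9 CPM in fresh libraries. PSMD12 was the most abundant lid transcript at 236 FPKM. In helium-cooled oocytes PSMD12 stood at 404, 379 and 467 CPM at 6.6 M and 471, 402 and 414 at 5.6 M. Nitrogen-cooled oocytes held 374, 503 and 613 CPM of PSMD12 at 6.6 M and 418, 468 and 421 at 5.6 M, against 347, 235 and 464 in fresh oocytes. Fresh library 2 lay below all others, and the groups overlapped. PSMD12 had a log2 fold change of 0.35 ± 0.18 (edgeR adjusted p = 0.416). PSMD13 was the least abundant at 4.68 FPKM. PSMD13 measured 4.998, 7.83 and 5.85 CPM with helium at 6.6 M and 4.46, 5.96 and 6.53 at 5.6 M, 4.07, 2.03 and 2.37 with nitrogen at 6.6 M and 5.08, 7.09 and 8.13 at 5.6 M, and 5.34, 4.52 and 2.53 in fresh oocytes. Nitrogen 6.6 M libraries 2 and 3 were the lowest of all, and nitrogen 5.6 M library 3 the highest.

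PSMD3 (ENSBTAG00000021461, chr19:40961497-40974702) had the lowest log2 fold change, vitrified over fresh, -0.69 ± 0.30 (edgeR adjusted p = 0.32). Transcripts of PSMD3 came to 19.99, 21.7 and 13.03 CPM in the helium 6.6 M libraries and 15.3, 13.5 and 11.6 in helium 5.6 M. They came to 17.8, 6.91 and 8.93 CPM in nitrogen 6.6 M, 8.89, 12.8 and 11.6 in nitrogen 5.6 M and 14.7, 36.7 and 11.8 in fresh libraries. Fresh library 2, at 36.7 CPM, lay above all 14 other libraries, which reached at most 21.7 CPM. Without it the log2 fold change was -0.0029. The other 4 lid genes, PSMD6, PSMD7, PSMD8 and PSMD11, had log2 fold changes of -0.06 to 0.31, and PSMD8 lay above all fresh values in both helium groups.

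Among the activators PSME4, which encodes the nuclear cap PA200, had lower values in helium-cooled oocytes. PSME4 (ENSBTAG00000020262) spans chr11:36424173-36524445. In helium-cooled oocytes PSME4 stood at 53.97, 58.6 and 64.9 CPM at 6.6 M and 63.2, 62.5 and 63.4 at 5.6 M. Nitrogen-cooled oocytes held 71.7, 69.5 and 73.9 CPM of PSME4 at 6.6 M and 77.5, 70.9 and 73.7 at 5.6 M, against 100.2, 65.3 and 95.7 in fresh oocytes. Both helium groups lay below all fresh values, and both nitrogen groups lay above helium and among the fresh ones. Among all tested proteasome genes PSME4 was the 1 whose 6 helium libraries did not overlap the 6 nitrogen ones, beside 3.36% of all genes. For PSME4 the log2 fold change was -0.38 ± 0.14 for vitrified over fresh, -0.56 ± 0.18 for helium 6.6 M over fresh and -0.46 ± 0.18 for helium 5.6 M over fresh. EdgeR gave adjusted p of 0.233, 0.146 and 0.239, and DESeq2 called the second (adjusted p = 0.0464). Without fresh library 2, the lowest fresh one, all 3 passed in edgeR, at -0.55, -0.73 and -0.63 (adjusted p = 0.0448, 0.0202 and 0.0433), where 3.14%, 7.4% and 5.58% of all genes passed.

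PSME1 and PSME2 encode the PA28 cap that interferon induces in immune cells and lie 4943 bases apart, at chr10:20846749-20849410 and chr10:20838545-20841805. PSME1 measured 4.57, 7.44 and 5.19 CPM with helium at 6.6 M and 4.46, 4.92 and 5.88 at 5.6 M, 6.61, 4.06 and 3.91 with nitrogen at 6.6 M and 5.93, 6.14 and 3.48 at 5.6 M, and 3.34, 6.03 and 2.95 in fresh oocytes. Its groups overlapped, and its log2 fold change was 0.33 ± 0.34 (edgeR adjusted p = 0.747). PSME2 had too few counts to test. In helium-cooled oocytes PSME2 stood at 6, 39 and 15 counts at 6.6 M and 8, 16 and 5 at 5.6 M. Nitrogen-cooled oocytes held 6, 3 and 12 counts of PSME2 at 6.6 M and 0, 2 and 2 at 5.6 M, against 0, 4 and 3 in fresh oocytes. Helium 6.6 M library 2 held 39 of its 121 counts. Summed, PSME2 stood at 1.84 CPM (95% exact Poisson interval 1.52 to 2.21) in vitrified and 1.15 CPM (0.464 to 2.38) in fresh libraries. PSME3 encodes the nuclear PA28 cap. Transcripts of PSME3 came to 5.43, 5.09 and 7.98 CPM in the helium 6.6 M libraries and 7.83, 7.904 and 8.17 in helium 5.6 M. They came to 7.12, 9.75 and 5.999 CPM in nitrogen 6.6 M, 7.62, 2.36 and 1.74 in nitrogen 5.6 M and 2.67, 9.55 and 2.95 in fresh libraries. Fresh library 2 and nitrogen 6.6 M library 2 were highest, and the log2 fold change was 0.28 ± 0.41 (edgeR adjusted p = 0.838). PSMF1 encodes PI31, named as an inhibitor of the core. PSMF1 measured 20, 18 and 18 counts with helium at 6.6 M and 23, 14 and 6 at 5.6 M, 5, 0 and 15 with nitrogen at 6.6 M and 0, 5 and 2 at 5.6 M, and 1, 5 and 1 in fresh oocytes. In sum PSMF1 stood at 2.03 CPM (1.69 to 2.42) in vitrified and 1.15 CPM (0.464 to 2.38) in fresh libraries, with overlapping intervals.

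The assembly chaperones PSMG1 to PSMG4 build the alpha ring. PSMG1, which pairs with PSMG2, was far the most abundant. In helium-cooled oocytes PSMG1 stood at 522, 568 and 555 CPM at 6.6 M and 538, 441 and 516 at 5.6 M. Nitrogen-cooled oocytes held 520.02, 682 and 763 CPM of PSMG1 at 6.6 M and 541, 695 and 578 at 5.6 M, against 598, 331 and 709 in fresh oocytes. The lowest value was that of fresh library 2, and every vitrified group overlapped the fresh one. PSMG2 averaged 134 FPKM. PSMG2 measured 130.4, 109.9 and 146 CPM with helium at 6.6 M and 157, 123 and 148 at 5.6 M, 102, 134 and 177 with nitrogen at 6.6 M and 166, 179 and 102 at 5.6 M, and 106, 75.9 and 121 in fresh oocytes. The helium 5.6 M values of PSMG2 lay above the fresh ones. PSMG1 and PSMG2 had log2 fold changes, vitrified over fresh, of 0.07 ± 0.18 and 0.46 ± 0.20 (edgeR adjusted p = 0.918 and 0.306). PSMG3 and PSMG4 form the second pair. Transcripts of PSMG3 came to 33.3, 46.6 and 31.7 CPM in the helium 6.6 M libraries and 34.8, 36.2 and 25.3 in helium 5.6 M. They came to 22.4, 20.3 and 31.5 CPM in nitrogen 6.6 M, 33.5, 31.7 and 27.9 in nitrogen 5.6 M and 14.02, 32.2 and 34.1 in fresh libraries. Fresh library 1 was the lowest of the 15 for PSMG3 and for PSMG4. PSMG4 measured 14.99, 14.1 and 17.2 CPM with helium at 6.6 M and 13.3, 10.9 and 9.96 at 5.6 M, 16.3, 13.4 and 27.3 with nitrogen at 6.6 M and 13.98, 12.3 and 20.3 at 5.6 M, and 4.67, 21.1 and 17.7 in fresh oocytes. Their log2 fold changes were 0.19 ± 0.23 and 0.02 ± 0.30 (edgeR adjusted p = 0.795 and 0.985).

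PSMD5, PSMD9 and PSMD10 encode chaperones of the base and had log2 fold changes of -0.12, -0.08 and 0.14. PSMD10, also called gankyrin, was the least abundant chaperone at 19.9 FPKM. In helium-cooled oocytes PSMD10 stood at 19.99, 14.5 and 19.4 CPM at 6.6 M and 18.1, 19.05 and 20.9 at 5.6 M. Nitrogen-cooled oocytes held 13.7, 15.4 and 17.996 CPM of PSMD10 at 6.6 M and 17.4, 21.7 and 15.7 at 5.6 M, against 18.03, 16.6 and 14.3 in fresh oocytes. All 3 helium 5.6 M values of PSMD10 lay above the fresh ones, by a narrow margin. PSMC3IP, the meiotic recombination factor that shares the name only, had 4.06 to 16.3 CPM in vitrified and 7.16 to 9.35 CPM in fresh libraries, with a log2 fold change of 0.05.

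Each vitrified group was also set against the same 3 fresh libraries, so the 4 comparisons share their control values and are given side by side. EdgeR called 0 of 42 proteasome genes in each, beside 0.628% of all genes for helium 6.6 M, 0.474% for helium 5.6 M, 0.0474% for nitrogen 6.6 M and 0.0118% for nitrogen 5.6 M. With helium at 6.6 M, 9 proteasome genes had an unadjusted p under 0.05 (8 higher, 1 lower) beside 15.4% of all genes (7.11% and 8.34%), and DESeq2 called 3, namely PSMB3, PSMC4 and PSME4, beside 4.54%. In a fit of the helium 6.6 M and fresh libraries with the replicate number as a block, 0 of 42 were called and 27 of all genes, against 0 of 42 and 2 of all genes in an unpaired fit of the same 6 libraries. With helium at 5.6 M, 3 had an unadjusted p under 0.05 beside 14.1% of all genes, and DESeq2 called 0 beside 4.19%. With nitrogen at 6.6 M, 7 did so beside 8.23%, and DESeq2 called 1, PSMB3, beside 1.65%. With nitrogen at 5.6 M, 6 did so beside 6.74%, and DESeq2 called 0 beside 0.619%. With no filter on low counts, edgeR called PSMB3 and PSMC4 for helium 6.6 M, beside 1.47% of all genes, PSMB3 for nitrogen 6.6 M, beside 0.368%, and PSMB3 for vitrified over fresh, beside 0.871%. DESeq2 gave no adjusted p for 4 of the 42 genes with helium at 6.6 M, 6 with helium at 5.6 M, 16 with nitrogen at 6.6 M and 7 at 5.6 M, so its counts and shares cover the others.

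PSMB3 had a log2 fold change against fresh of 0.87 ± 0.23 in helium 6.6 M, 0.58 ± 0.23 in helium 5.6 M, 0.85 ± 0.23 in nitrogen 6.6 M and 0.71 ± 0.23 in nitrogen 5.6 M. In edgeR the adjusted p was 0.0787, 0.245, 0.232 and 0.513 in the same order. PSMC4 had 0.92 ± 0.23, 0.54 ± 0.22, 0.40 ± 0.23 and 0.15 ± 0.23 in that order. PSMD3, low against fresh library 2, had -0.21, -0.64, -0.97 and -0.93. Groups that did not overlap the fresh one numbered 6 proteasome genes in helium 6.6 M (16.3% of all genes), 7 in helium 5.6 M (18.1%), 4 in nitrogen 6.6 M (9.31%) and 2 in nitrogen 5.6 M (9.26%). The median log2 fold change of the 42 genes was 0.26, 0.16, 0.15 and 0.16 in that order, against -0.02, 0.00, -0.03 and -0.05 over all genes. With single libraries left out it was 0.21 to 0.30 for helium 6.6 M, 0.12 to 0.22 for helium 5.6 M, 0.081 to 0.17 for nitrogen 6.6 M and 0.11 to 0.23 for nitrogen 5.6 M. The nitrogen 6.6 M median was 0.081 without nitrogen 6.6 M library 3, 0.094 without its library 1 and 0.082 without fresh library 1, and the nitrogen 5.6 M median 0.11 without fresh library 1. Adding depth class to the fit gave 0.22 with helium at 6.6 M and 0.02 with helium at 5.6 M, where all libraries were deep and all fresh ones shallow. That term rests on nitrogen 6.6 M library 3, and adding it gave the nitrogen 6.6 M median found without this library, 0.081.

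**Figure D4:**
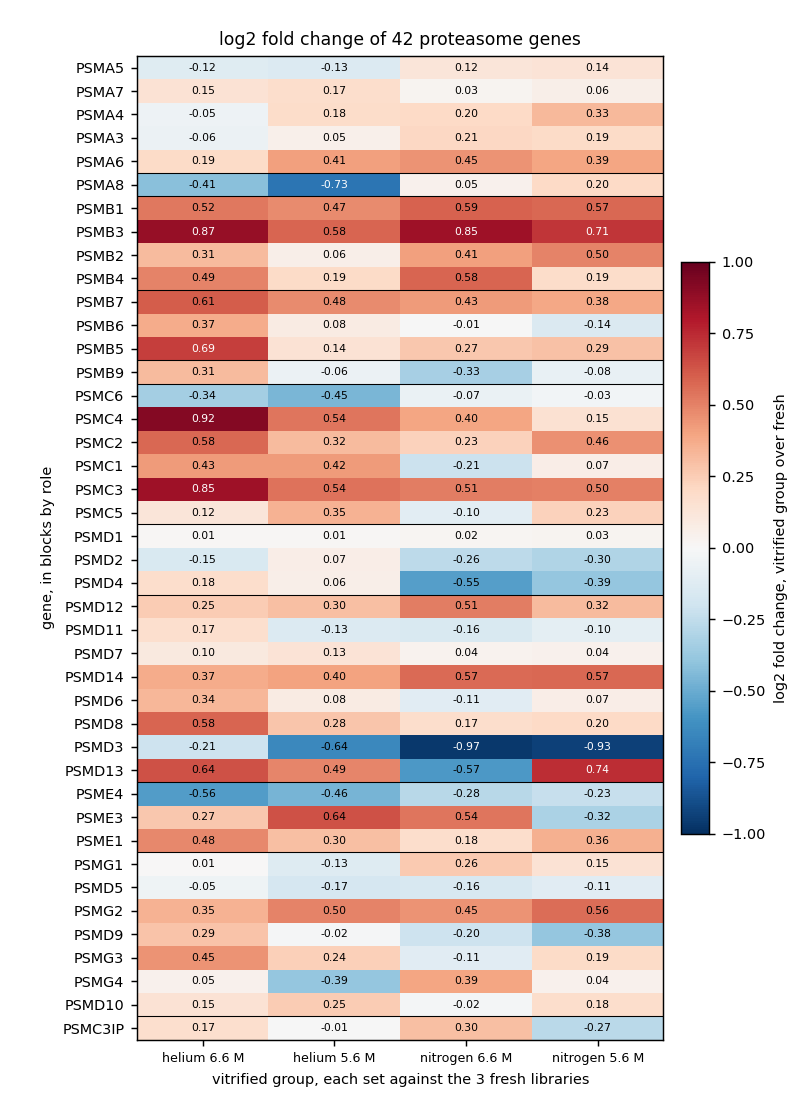
Log2 fold change of the 42 tested proteasome genes in each vitrified group over the same 3 fresh libraries, with genes in blocks by role and red for higher in the vitrified group. PSMB1 to PSMB4, PSMB7 and PSMC4 are among the genes above 0 in all 4 columns. PSME4 and PSMD3 are among those below 0 in all 4, and no value passed the adjusted threshold in edgeR.

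Helium was set against nitrogen over both concentrations. EdgeR called 0 of 42 proteasome genes, beside 0.663% of all genes, and 5 had an unadjusted p under 0.05 (4 higher, 1 lower), beside 16% of all genes (7.43% and 8.57%). DESeq2 called 0, beside 3.95%, with no adjusted p for 3 of the 42. Those 5 were PSMC1 (0.50), PSMC4 (0.45), PSMD4 (0.59), PSMD9 (0.43) and PSMA8 (-0.69), as log2 fold changes of helium over nitrogen. PSMC4 had 102 ± 22.8 and 78.5 ± 8.05 CPM in the helium groups at 6.6 and 5.6 M, against 71.2 ± 3.91 and 60.4 ± 10.9 CPM in the nitrogen groups at the same concentrations (SD, n = 3 each). Its edgeR adjusted p was 0.169. The median over the 42 genes was 0.11, against 0.03 over all genes, and -0.04 with depth class in the fit. It was 0.033 without helium 6.6 M library 2, 0.065 without helium 5.6 M library 5, 0.055 without nitrogen 5.6 M library 1 and 0.068 without nitrogen 5.6 M library 3, and reached 0.15 without helium 5.6 M library 3. Above 0 lay 1 of 5 alpha ring genes, 0 of 4 structural beta genes (median -0.07), 3 of 3 catalytic ones and 5 of 6 base ATPases. So did 2 of 3 non-ATPase subunits of the base, 6 of 8 lid genes, 2 of 3 activators and 4 of 7 assembly chaperones. Depth differed between the coolants in all but 1 library, nitrogen 6.6 M library 3. The depth term rests on that library alone, and the part of depth in these values was not tested beyond this term.

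No proteasome gene passed the threshold between the concentrations of the cryoprotectant. At 6.6 M against 5.6 M, edgeR and DESeq2 called 0 of 42 proteasome genes and 0% of all genes, and 1 had an unadjusted p under 0.05 in edgeR, beside 2.24% of all genes. This was PSMD13, with a log2 fold change of -0.58 ± 0.26 (edgeR adjusted p = 1). PSMG4 came next in size, with 0.39 ± 0.25 (edgeR adjusted p = 1). The median of the 42 genes was 0.04, against 0.01 over all genes. Whether the concentration acted differently with each coolant was tested as an interaction, with 0 of 42 called by edgeR and by DESeq2, 0% of all genes, and 1 at an unadjusted p of 0.05 in edgeR, beside 2.1% of all genes. PSMD13 again led, at 1.46 ± 0.51, since its nitrogen values were 2.82 ± 1.09 CPM at 6.6 M and 6.77 ± 1.55 at 5.6 M, and its helium values 6.23 ± 1.45 and 5.65 ± 1.07 (SD, n = 3 each). PSME3 followed in the opposite sense, at -1.22 ± 0.63 (edgeR adjusted p = 1 for it and 1 for PSMD13).

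Libraries of a group differed most among the fresh oocytes. The median coefficient of variation of the proteasome genes within a group was 14.1% in helium 6.6 M, 11.6% in helium 5.6 M, 20.0% in nitrogen 6.6 M, 17.5% in nitrogen 5.6 M and 32.7% in fresh oocytes. Over all genes it was 17.7%, 14.1%, 22.2% and 22.0% in the vitrified groups in the same order, and 29.8% in fresh oocytes. The fit shares 1 estimate of spread per gene over the groups, so standard errors against fresh may be too narrow. Fresh library 2 was the lowest of the 15 in 15 of 42 proteasome genes, beside 12.8% of all genes. Set against the mean of the other 2 fresh libraries on the log2 scale, it was lower in 5 of 5 alpha ring genes, with PSMA5 at -1.30 and PSMA4 at -1.03. Other genes beyond 0.8 below that mean were PSMA8 at -1.38, PSMG1 at -0.98, PSMC6 at -0.89 and PSMD5 at -0.82. The base went the other way, with 4 of 6 ATPases higher (median 0.54) and 3 of 3 non-ATPase subunits. Genes beyond 0.8 above the mean were PSME3 at 1.60, PSMD3 at 1.44, PSMG4 at 1.15, PSMD4 at 1.00, PSMC1 at 0.93, PSMC3 at 0.86, PSME1 and PSMD9 at 0.84, PSMB5 at 0.83 and PSMD2 at 0.82. Helium 6.6 M library 2 was the highest of the 15 in 13 of 42 proteasome genes, beside 10.7% of all genes. There, all 4 structural and all 3 catalytic beta genes exceeded the mean of the group's other 2 libraries, by 0.27 to 0.58 and 0.32 to 0.90 on the log2 scale. All 4 structural ones also did so in fresh library 3 (0.61 to 0.80) and nitrogen 6.6 M library 3 (0.40 to 0.68). All 3 catalytic ones did so in nitrogen 5.6 M library 3 (0.20 to 0.48) and helium 5.6 M library 4 (0.06 to 0.37). Fresh library 3 was also higher in 5 of 5 alpha ring genes, with a median of 0.32 over the 42 genes. The cumulus and granulosa markers summed to 538 CPM in helium 6.6 M library 2 and 289 to 332 CPM in the other 2 of its group. Oocyte markers summed to 8888 CPM there, beside 8961 and 7230 CPM in those 2. In fresh library 2 the cumulus and granulosa markers summed to 440.2 CPM, beside 282 and 299 CPM in the other fresh libraries. The oocyte markers summed to 8994 CPM in fresh library 2, beside 4753 and 5332 CPM. Their part in these values was not tested. With fresh library 2 and helium 6.6 M library 2 both left out, the median log2 fold change of vitrified over fresh was 0.19. EdgeR then called 1 of 42, PSME4, beside 3.14% of all genes. In helium 6.6 M and helium 5.6 M over fresh the 1 call was also PSME4 with both left out, beside 2.89% and 6.35% of all genes.

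**Figure D5:**
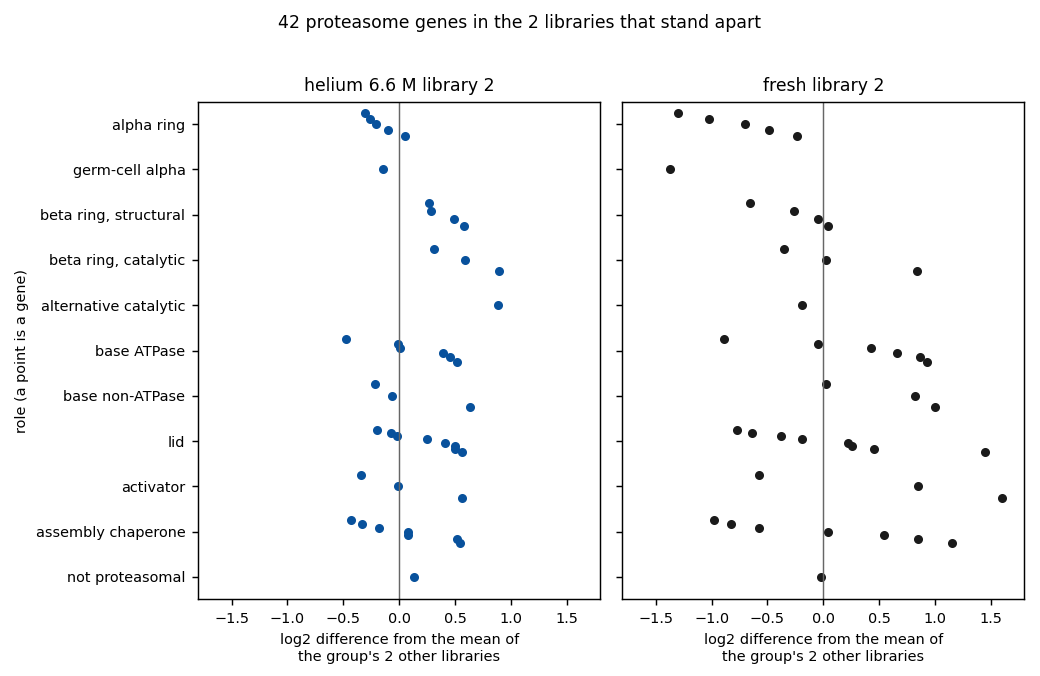
Log2 difference of each tested proteasome gene from the mean of the other 2 libraries of its group (log2 of CPM plus 0.5), by role, in helium 6.6 M library 2 and in fresh library 2. In fresh library 2 the alpha ring lies between -1.30 and -0.23, and in helium 6.6 M library 2 all beta ring genes lie above 0.

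Partner genes of the proteasome were read from a list of 43 symbols covering ubiquitin genes, shuttle factors, associated enzymes and regulators. Of these 36 were in the table and 30 had enough counts. EdgeR called 0 of the 30 in each of the 8 comparisons. Against fresh, vitrified oocytes had 6 at an unadjusted p under 0.05 (1 higher, 5 lower), beside 13.6% of all genes (5.88% and 7.71%), and the median log2 fold change of the list was -0.09, against -0.03 over all genes. RAD23B, a shuttle factor that carries ubiquitylated proteins to the proteasome, had a log2 fold change of -0.48 ± 0.13 for vitrified over fresh (edgeR adjusted p = 0.112). By group it had -0.74 ± 0.17 in helium 6.6 M, -0.67 ± 0.17 in helium 5.6 M, -0.31 ± 0.17 in nitrogen 6.6 M and -0.17 ± 0.17 in nitrogen 5.6 M over fresh (edgeR adjusted p = 0.0506, 0.0816, 0.683 and 0.887). NGLY1, an enzyme that strips sugars from misfolded glycoproteins, had -0.59 ± 0.16 for vitrified over fresh (edgeR adjusted p = 0.103). Both were chosen after their values were seen, as the lowest of the list in p among genes below 0.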

How the data were processed

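Groups and replicate numbers came from the sample labels. Per the labels' protocols, cDNA from single cells was amplified with SMARTer kits. The build UMD3.1 and the tools StringTie 1.3.0 and HISAT2 2.0.4 are named in the submitters' processing notes. How multi-mapping reads were counted, which could split them between near-identical copies of a gene, and the use of strand, were both not given in the sources used here. Unscaled whole-number counts per gene were deposited, per the file headers. FPKM values were also deposited, and all 180473 values above 0 could be recomputed from the count, the length of the gene and the total of the library within 0.1%. Library totals were 1601519 to 8569618 counts.

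All 15 libraries entered 1 robust quasi-likelihood fit of the 5 groups in edgeR 4.0.16 (R 4.3.3), with TMM scaling and filterByExpr (minimum count 10), and 8 contrasts were adjusted by Benjamini-Hochberg over 8441 genes at 0.05. The filter kept 42 proteasome genes, while PSMB8, PSMB10, PSMB11, PSME2 and PSMF1 were given as counts. The fit was tested on simulated counts with the same dispersion for all genes and groups. That check cannot show how the fit behaves where fresh libraries spread more than vitrified ones, as here. Alternatives were DESeq2 1.42.0, RLE size factors, no filter, a depth class term, shallow libraries alone, leaving out each library, and a replicate block. Deviations from the group means of same-numbered helium 6.6 M and fresh libraries correlated by 0.147, 0.306 and 0.227. The labels name no pairing, and weak correlations with no comparison of unlike numbers cannot establish one. The reported fit is therefore unpaired, and the replicate block is an alternative only. In each other pair of groups examined, 1 or more of the correlations between same-numbered libraries was below 0. No pair with helium 5.6 M was examined. Chi-square per degree of freedom between libraries of a group was 5.52 to 30.0. The members, gene lists and rule for named genes were chosen with earlier results of these data known. Named with every library's value were the highest and lowest gene of each role, the catalytic subunits and their alternatives, PSMA7 and PSMA8, activators, inhibitor and PSMG chaperones, and the 2 tested genes of largest log2 fold change in each contrast. No sequence is shown.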

Additional observations from a re-analysis of the deposited data

How the results depend on the processing

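The median over the proteasome genes of a single library had an SD of 0.18 within groups. The medians of the log2 fold change in the reported fit were below that, except 0.26 for helium 6.6 M over fresh. That SD is not the error of a difference between groups, so moves within it say little about stability. With depth class as a term, helium 5.6 M over fresh was 0.016, against 0.16 in the reported fit, and helium over nitrogen -0.042, against 0.11. The count of proteasome genes called, 0 in all 8 comparisons, differed in 4 of them. For vitrified over fresh it was 1 with DESeq2, 1 with no filter on low counts, 1 with fresh library 2 and helium 6.6 M library 2 both left out, and 0 to 1 with single libraries left out. For helium 6.6 M over fresh it was 3 with DESeq2, 2 with no filter, 1 with both libraries left out and 0 to 3 with single libraries left out. For helium 5.6 M over fresh it was 1 with both libraries left out and 0 to 1 with single libraries left out. For nitrogen 6.6 M over fresh it was 1 with DESeq2 and 1 with no filter. PSMB3 passed for vitrified over fresh (0.78) and helium 6.6 M over fresh (0.92) with no filter, and PSMC4 for helium 6.6 M over fresh (0.97). Without fresh library 2, PSMC4 (1.05) and PSMC3 (1.22) passed for helium 6.6 M over fresh, as did PSME4. PSMD3 in helium 5.6 M over fresh, at -0.64, ran from -0.96 to 0.045 with single libraries left out, with 0.045 without fresh library 2, and was 0.042 with both libraries left out. The alternative with both libraries left out was chosen after seeing the data. Counts over all genes moved more. For vitrified over fresh, 43 genes in the reported fit compare with 191 in DESeq2, 142 with no filter, 1 with depth class as a term, 1 in libraries below 4000000 counts, 265 with both libraries left out and 3 to 265 with single libraries left out. For helium 6.6 M over fresh, 53 compare with 279, 239 and 0 under the first 3 of these, 244 with both left out and 3 to 625 with single libraries left out. For helium 5.6 M over fresh, 40 compare with 244, 160 and 0, then 536, and 1 to 471. For nitrogen 6.6 M over fresh, 4 compare with 69, 60 and 1, and for nitrogen 5.6 M over fresh 1 compares with 32, 26 and 2. For helium over nitrogen, 56 compare with 269, 344 and 13, then 216, and 15 to 73. The cause was not tested. With the replicate number as a block, 0 proteasome genes were called in each of the 3 comparisons fitted, and the medians were 0.31 for helium 6.6 M, 0.22 for nitrogen 5.6 M and 0.20 for nitrogen 6.6 M over fresh, against 0 called and medians of 0.27, 0.18 and 0.15 in unpaired fits of the same 6 libraries. The unpaired fits were added after seeing the data. Low genes limit what the depth can show: PSMB8, PSMB10, PSMB11, PSME2 and PSMF1 had 1 to 133 counts in all, and PSMB9, PSME1, PSME3 and PSMD13 218 to 457.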

Other observations

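The rule goes by symbol and so leaves out genes of the same complex that carry another name or none. A gene without a symbol, ENSBTAG00000006564 at chr15:38745761-38758646, is described in the deposited table as proteasome subunit alpha type-1, a ring neighbour of the alpha genes above. It averaged 5.00 ± 1.55 FPKM in vitrified libraries (SD, n = 12) and 10.1 ± 2.53 FPKM in fresh ones (n = 3), far below the 252.2 FPKM of PSMA6, the lowest of the 5 alpha genes with a symbol. Its values ran from 2.66 to 7.65 FPKM in vitrified and from 7.57 to 12.6 FPKM in fresh libraries. On this scale 1 vitrified library, helium 6.6 M library 2, lay above the lowest fresh one, fresh library 1. FPKM carries no TMM factor, which was 1.12 for the former and 0.938 for the latter. With these factors applied, helium 6.6 M library 2 falls below fresh library 1. The log2 fold change, vitrified over fresh, was -1.06 ± 0.28 and did not pass (edgeR adjusted p = 0.0937).

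SHFM1, which encodes the small lid subunit DSS1, spans 213 bases on chromosome 22 in the table, and the files do not show whether its reads come from that locus or from another copy of the gene. It stood at 311 to 939 FPKM in vitrified libraries and 238 to 280 FPKM in fresh ones, with no overlap between the 2. The log2 fold change was 0.88 ± 0.26 (edgeR adjusted p = 0.134), beside 1.32% of all genes whose vitrified libraries all lay above the fresh ones. POMP, the chaperone that completes the core particle, was at the level of the alpha ring, with 806.9 ± 229 FPKM in vitrified and 854 ± 383 FPKM in fresh libraries (SD, n = 12 and 3). ENSBTAG00000003679, described as proteasomal ATPase-associated factor 1, had 3.31 ± 1.25 FPKM in vitrified and 4.19 ± 1.28 FPKM in fresh libraries. These 4 genes were picked by their names and descriptions, with no rule on their values.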
